A study of Mus musculus with 2 samples.

Results

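The genes described here are the 8 members of 1 set, the immunoglobulin constant genes Ighm, Ighd, Igha, Igkc, Iglc1, Iglc2 and Iglc3 and the joining-chain gene Jchain, out of 31053 genes in the count tables. The members were taken by gene symbol, and all 8 had unique molecular identifiers (UMIs, each counting 1 captured RNA molecule) in at least 1 sample. They were read in mouse brain by droplet single-cell RNA sequencing, with 1 pooled sample in each of 2 groups. A sample called sorted brain held fluorescence-sorted cells of male mice at 3 and 12 months. A sample called total brain held unsorted cells of males and females at 2 and 24 months, the older age being given as 240 months in another label. Both samples mixed wild type (WT) mice with STING-KO mice, which lack the adaptor of cytosolic DNA sensing, and 2 mice were grouped for each genotype and age. Which cells the sort selected is not stated in the labels. Each count table pools barcode suffixes 1 to 4, which no source used here ties to a genotype or an age, so the values below describe 2 pools of cells, and no effect of STING or of age can be read from them. There is 1 sample per group, and no test between samples or suffixes was possible. Bracketed ranges are exact 95% intervals (Poisson for levels and folds of levels, Clopper-Pearson for shares) and cover counting error only.

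Antibodies are built from paired heavy and light chains. The heavy-chain constant gene in use sets the class: Ighm gives IgM, Ighd gives IgD, which naive B cells make together with IgM from the same transcript, and Igha gives IgA, which B cells reach by deleting the constant genes in between. The light chain is either kappa, with the single constant gene Igkc, or lambda, with Iglc1, Iglc2 and Iglc3. Jchain encodes the small protein that joins secreted IgM or IgA into polymers, and plasma cells, the antibody-secreting end stage of the lineage, make it together with very large amounts of immunoglobulin RNA. The meninges and the choroid plexus stroma are known to hold B cells and IgA plasma cells, whereas the brain parenchyma holds few.

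By the deposited gene IDs and the GENCODE M21 annotation (GRCm38, the build that mm10 names), Ighm (12:113418558-113422730), Ighd (12:113406604-113416324) and Igha (12:113254830-113260236) lie in 1 array on the minus strand of chromosome 12. Igkc lies on the plus strand of chromosome 6 (70726435 to 70726966), and Jchain on the minus strand of chromosome 5 (88519809 to 88527891). The lambda genes lie on the minus strand of chromosome 16, with Iglc1 and Iglc3 side by side and Iglc2 farther off. The lambda genes are shown first, because the results below turn on how their UMIs divide. The 3 lines give 120 bases of coding sequence from the same point of each constant exon (GENCODE M21 transcripts, 5′ to 3′, minus strand), in lower case with capitals at the 30 positions where the 3 genes are not all alike.
Iglc1, chr16:19061949-19062068: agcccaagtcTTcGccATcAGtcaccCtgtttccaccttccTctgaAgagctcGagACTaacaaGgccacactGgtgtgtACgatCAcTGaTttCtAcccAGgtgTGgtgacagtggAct
Iglc2, chr16:19198730-19198849: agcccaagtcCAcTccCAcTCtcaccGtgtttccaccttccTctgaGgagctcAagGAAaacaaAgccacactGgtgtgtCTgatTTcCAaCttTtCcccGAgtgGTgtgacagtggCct
Iglc3, chr16:19065559-19065678: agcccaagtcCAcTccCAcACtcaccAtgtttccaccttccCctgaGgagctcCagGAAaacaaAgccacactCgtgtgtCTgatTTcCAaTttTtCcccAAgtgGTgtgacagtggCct
Iglc2 and Iglc3 shared 113 of these 120 bases (94.2%), and the longest run the 2 transcripts share is 79 bases. Iglc1 shared 92 bases with Iglc2 and 93 with Iglc3, and its longest shared runs were 19 and 17 bases. The split of UMIs between Iglc2 and Iglc3 is therefore uncertain, while that between Iglc1 and the other pair rests on many differing positions. The constant gene Igkc also overlaps the noncoding gene Gm30211 on the same strand, so that the counting of reads there is uncertain. Iglc1 and Iglc3 overlap a gene on the opposite strand, and whether the counting used strand is not stated in the labels.

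Barcodes with 500 or more genes and no more than 10% of UMIs from mitochondrial genes were kept, which left 10076 of 13499 sorted barcodes with 31220601 UMIs and 9367 of 14674 total barcodes with 33498788 UMIs. The median depth was 2293.5 UMIs in sorted and 1692 in total brain. Sorted suffixes held 2034 to 3160 kept cells and total suffixes 1092 to 3644. A cell was called B-lineage with at least 1 UMI of Cd79a, a signalling subunit of the B cell receptor, or at least 5 UMIs of Jchain. The doublet caller marked 0.744% of sorted and 0.0747% of total cells, and in the latter it did not work. Of the barcode sequences 46 occurred in kept cells of more than 1 sorted suffix, 8 in more than 1 total suffix and 0 in both samples.

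B-lineage cells by this rule numbered 911 in sorted brain, 9.04% [8.49–9.62], and 53 in total brain, 0.566% [0.424–0.739]. In suffixes 1 to 4 of the sorted sample they were 7.97%, 4.59%, 9.88% and 13.9% of kept cells. The label was checked against clusters built without any immunoglobulin gene or Jchain. In sorted brain 705 of the 911 cells (77.4%) fell in the cluster named B cell-like, which raised 10 of 10 B cell markers. Another 69 lay in microglia-like and 38 in choroid plexus epithelium-like clusters, and each of these cells had exactly 1 Cd79a UMI, with a median of 0 Igkc UMIs in either class. In total brain 22 of the 53 cells were B cell-like. The 12 neuron-like cells among the rest likewise had 1 Cd79a UMI each. Levels of B cells are therefore given for the B cell-like cluster, and the rule's cells beside them.

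Across the 695 B cell-like cells of sorted brain that were not rich in Jchain, Igkc was the most abundant member and Ighm the second. Igkc stood at 16991 UMIs per 1000000 UMIs of the class (CPM) and Ighm at 4766, against 637 for Ighd, which marks mature naive cells. The lambda genes followed at 1876 (Iglc1), 2204 (Iglc2) and 1422 (Iglc3) CPM. Igha, at 20.1 CPM, and Jchain, at 14.7 CPM, were close to absent from these cells. The 22 B cell-like cells of total brain had the same leading pair, with Igkc at 11870 and Ighm at 3630 CPM, then Iglc2 at 1437, Ighd at 1011, Iglc3 at 841 and Iglc1 at 543 CPM. Igha and Jchain had 0 UMIs in these 22 cells. These levels compare UMIs between genes of different lengths, which a 3′ assay does not scale by length.

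**Figure D1:**
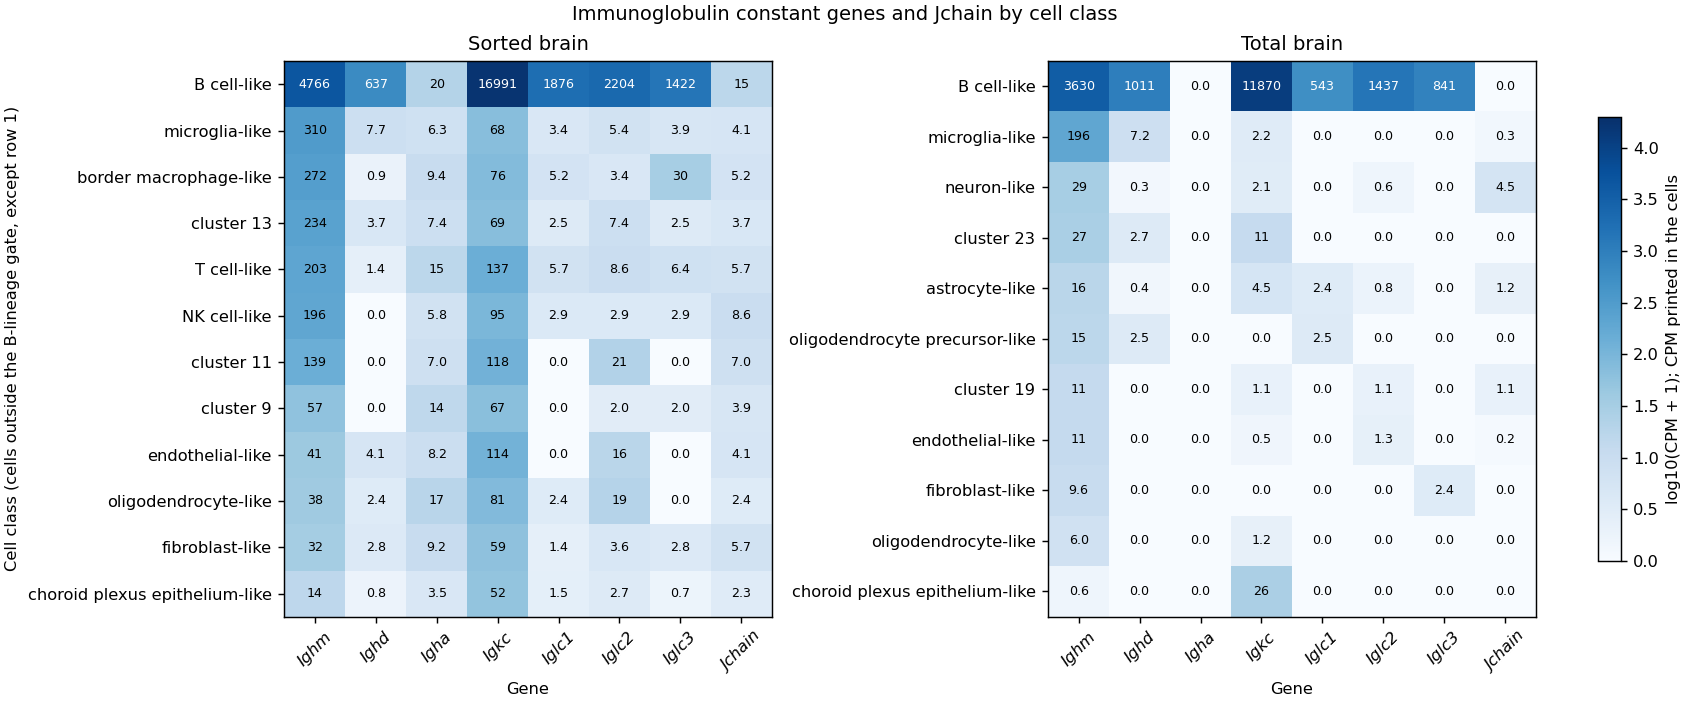
Level (CPM) of the 8 members in each cell class with at least 50 cells outside the B-lineage rule (lower rows) and in row 1 the B cell-like cluster without Jchain-high cells, with 695 sorted and 22 total cells, coloured by log10(CPM + 1), in sorted (left) and total brain (right). Igkc is the highest member in the B cell-like row of both samples, Ighm in the microglia-like row of both, and Igkc in the choroid plexus epithelium-like row of both.

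The levels of Ighm differed less between the suffixes of sorted brain than those of Igha and Jchain. Ighm in B cell-like cells stood at 4709, 4319, 5159 and 4823 CPM in suffixes 1 to 4. Igkc stood at 14725, 12802, 18527 and 20963 CPM. In suffix 4, however, 1 cell rich in immunoglobulin held 2297 of the 7937 Igkc UMIs and 330 of the 1826 Ighm UMIs. Levels of suffix 4 without that cell were not computed, so the place of suffix 4 among the suffixes is uncertain for Igkc and Ighm. Igha had 3, 3, 16 and 4 UMIs and Jchain 0, 1, 11 and 7, so both were highest in suffix 3. The largest number of Jchain UMIs in any of these 695 cells was 1.

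IgM was the class of almost every B-lineage cell whose class could be called. A call needed at least 3 heavy-chain UMIs with 80% of them from 1 class, with Ighm and Ighd taken as 1 class because naive cells make both. In sorted brain 690 of the 694 called cells were Ighm/Ighd (99.4% [98.5–99.8]), 3 were Igha (0.432% [0.0892–1.26]) and 1 was of an IgG gene, while 5 cells were mixed and 212 had too few UMIs. Total brain had 29 called cells, all Ighm/Ighd. The IgE gene Ighe had 0 UMIs in either sample. The IgG genes were rare in sorted B-lineage cells, with 13 Ighg2b UMIs in 5 cells, 13 Ighg3 UMIs in 5 cells, 3 Ighg2c UMIs in 2 cells and 1 Ighg1 UMI.

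Within the 695 B cell-like cells of sorted brain, Ighm and Ighd were both detected in 393 cells (56.5% [52.8–60.3]), Ighm alone in 290 (41.7%) and Ighd alone in 6. The cells with both were deeper, with a median of 1640 UMIs against 1391 in those with Ighm alone. In total brain, where B cell-like cells had a median of 4041.5 UMIs, 17 of 22 cells had both and 5 had Ighm alone. The share of cells with Ighd thus moved with depth, and how much of it depth accounts for was not tested.

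Genes of early B cell development, which rearrange or stand in for the receptor chains, were read in few of these cells, and the members had a different profile there. At least 1 UMI of Rag1, Rag2, Dntt, Vpreb1, Vpreb2 or Igll1 was found in 20 of the 695 cells (9, 3, 1 and 7 in suffixes 1 to 4). These 6 genes were picked from the list of 13 early B cell genes after their values were seen. In the 20 cells Ighm stood at 3863 CPM [3439–4325], somewhat below the 4824 CPM [4701–4949] of the other 675 cells. Igkc stood at 2695 CPM [2343–3085] against 17908 [17671–18147], and Ighd at 128 CPM [61.5–236] against 670 [625–717]. Iglc1 stood at 834 CPM against 1943, Iglc2 at 911 against 2287 and Iglc3 at 180 against 1502. Igkc, Iglc3 and Ighd UMIs were therefore several times scarcer there, and Iglc1 and Iglc2 less so. Ighm was only somewhat lower. The 20 cells were deeper (a median of 2365.5 against 1504 UMIs).

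Kappa exceeded lambda among B-lineage cells of sorted brain, and a large part of the cells carried UMIs of both. By the same 80% rule 399 cells were kappa, 46 lambda and 299 mixed, and 167 had too few UMIs. Lambda cells were 10.3% [7.67–13.5] of the kappa and lambda calls. In suffixes 1 to 4 lambda cells were 13.8%, 16.7%, 5.05% and 8.75% of the calls, on 19, 8, 5 and 14 lambda cells. In total brain 19 cells were kappa, 2 lambda and 6 mixed. The mixed calls depended on where the rule was set, since 206 of the 689 B cell-like cells with at least 3 light-chain UMIs had between 15% and 25% lambda.

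The lambda UMIs of kappa-rich cells were divided among the 3 genes in other proportions than those of lambda cells, with less Iglc1 and more Iglc3. In the 139 B cell-like cells with at most 10% lambda, Iglc1 gave 14.6% [11.1–18.7] of the lambda UMIs, Iglc2 46.2% and Iglc3 39.2%. In the 269 cells with 20% to 50% lambda the split was still 20.7%, 44.5% and 34.8%, at a median of 9 lambda UMIs beside 23 Igkc UMIs. In the 45 cells with at least 80% lambda, Iglc1 gave 60.8% [58.5–63.1], Iglc2 34.2% and Iglc3 4.98% [4.03–6.09], with a median of 31 lambda UMIs and 0 Igkc UMIs. Of these 45 lambda cells 28 were led by Iglc1, 14 by Iglc2 and 2 by Iglc3. Whether reads assigned to the wrong lambda gene had a part in this split was not tested. For comparison, T cell-like cells outside the B-lineage rule had 5.7 (Iglc1), 8.6 (Iglc2) and 6.4 (Iglc3) CPM, against 1876, 2204 and 1422 in B cell-like cells.

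**Figure D2:**
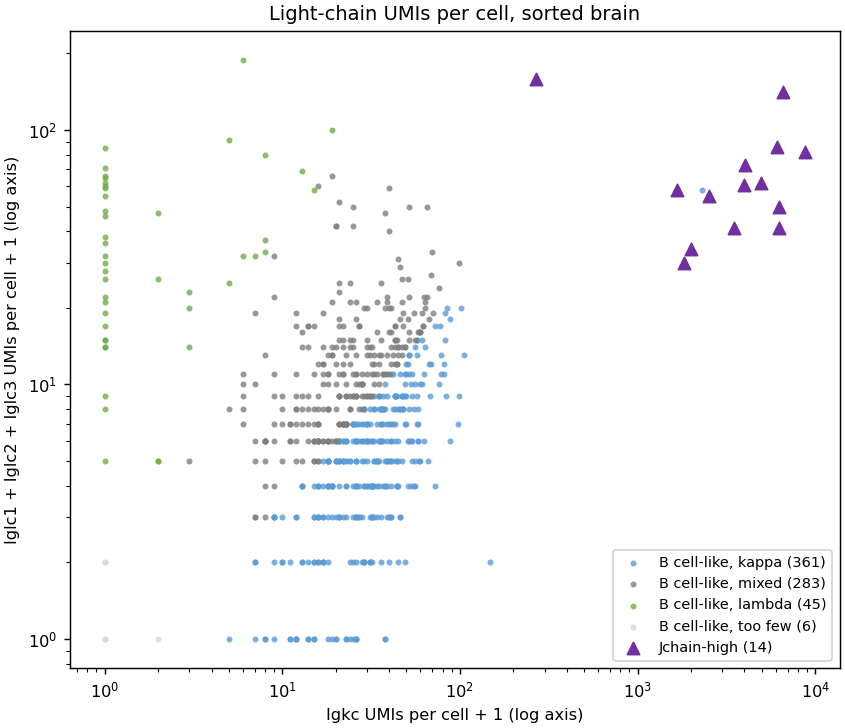
Igkc UMIs (x axis, log scale, 1 added) against the sum of Iglc1, Iglc2 and Iglc3 UMIs (y axis, log scale, 1 added) in single cells of sorted brain: 695 B cell-like cells coloured by light-chain call and 14 Jchain-high cells as triangles. Of the 45 lambda cells 27 lie at the left edge with 0 Igkc UMIs and the others reach 18, the 283 mixed cells adjoin the 361 kappa cells with no gap, and 13 of the 14 triangles lie far to the right at 1659 or more Igkc UMIs.

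Variable-gene UMIs were sparse, so clones could not be followed. In sorted brain 16 of 911 B-lineage cells had an Ighv UMI, 77 an Igkv UMI and 65 an Iglv UMI. The variable gene leading in most cells was Iglv3 (40 cells), then Iglv1 (23) and Igkv19-93 (11 cells, 17 UMIs). Igkv4-55 led in 5 cells and Igkv1-117, Igkv12-89 and Igkv12-46 in 4 cells each.

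Cells rich in Jchain, as plasma cells are known to be, numbered 14, all in sorted brain. Among kept sorted cells 9937 had 0 Jchain UMIs, 123 had 1 and 2 had 2, and the next cell had 8, so the minimum of 5 UMIs fell in an empty range. The 14 Jchain-high cells were 1.54% [0.843–2.57] of B-lineage cells, with 1, 0, 9 and 4 cells in suffixes 1 to 4. In total brain the most Jchain UMIs in a cell was 3. None of the 53 B-lineage cells there was Jchain-high (0% [0–6.72]), and only 22 of the 53 were B cell-like.

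These 14 of 10076 cells held much of the RNA of several members. They carried 98.1% of the Jchain UMIs of kept sorted cells, 97.0% of Igha, 69.7% of Igkc and 54.5% of Ighm, and 0 of the 987 Ighd UMIs. Of the lambda genes they carried 9.35% (Iglc1), 13.2% (Iglc2) and 9.43% (Iglc3). Jchain ranged from 8 to 2563 UMIs per cell with a median of 226.5, and Igkc from 267 to 8715 with a median of 4014. Immunoglobulin genes made up 3.41% of the UMIs of 1 cell and 24.9% to 76.6% of those of the other 13.

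By class 11 of the 14 cells were Ighm cells and 3 were Igha cells, and 13 were kappa. In the 11 Ighm cells Ighm ranged from 173 to 2584 UMIs with a median of 986, and Igha was at most 1. The 3 Igha cells had 1088, 2475 and 3099 Igha UMIs beside 4, 0 and 1 Ighm UMIs, and all 3 came from suffix 3. Their Jchain counts were 371, 984 and 2563 UMIs, and the Ighm cells of suffix 3 had 81, 162, 165, 242, 276 and 771. The Jchain counts of the 2 classes overlap. Jchain per 100 heavy-chain UMIs was 34.0, 39.8 and 82.7 in the Igha cells and 3.13 to 47.1 in the Ighm cells. The 4 cells of suffix 4 were all Ighm cells, with 102, 141, 211 and 464 Jchain UMIs.

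**Figure D3:**
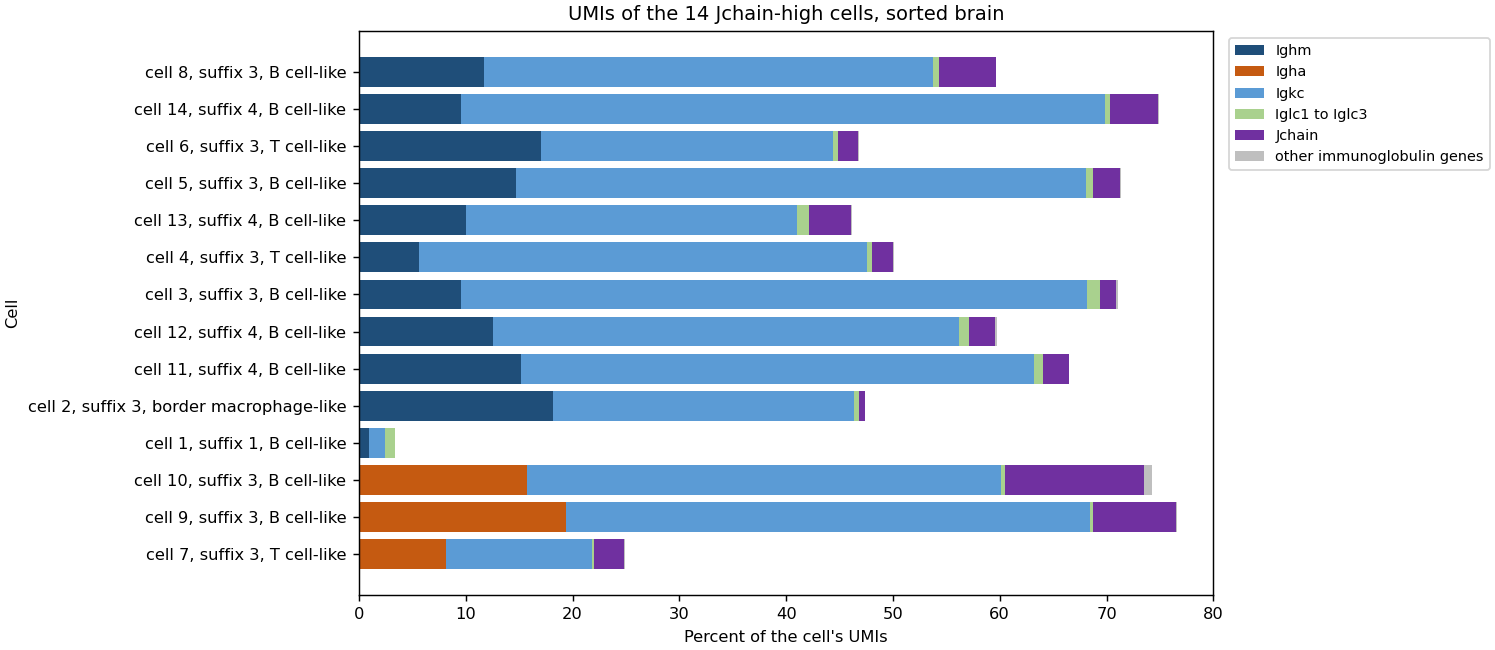
Share of each cell's UMIs (x axis, percent) taken by Ighm, Igha, Igkc, the lambda constant genes, Jchain and other immunoglobulin genes in the 14 Jchain-high cells of sorted brain (bars, with suffix and cluster name). The 3 Igha cells are all of suffix 3, Igkc is the largest part of all 14 bars, and cell 1 of suffix 1 stands apart at 3.41%.

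Some of these barcodes also carried UMIs that mark other cells. The cell of suffix 1 had 17836 UMIs, 173 Ighm and 8 Jchain UMIs, 37.0% lambda among its light-chain UMIs, 9 B cell markers and 7 UMIs of Ms4a1 (the CD20 gene of B cells), which had 0 or 1 UMI in the other 13. The plasma cell surface gene Sdc1 was at 0 in it. Another 3 cells lay in the T cell-like cluster and carried 15 to 26 UMIs of T cell markers, which were at 0 or 1 UMI in the other 11 cells. A further cell lay in the border macrophage-like cluster with 8 UMIs of that class's markers and 22 of microglia markers. The doublet caller marked 0 of the 14, and whether 2 cells shared these droplets was not tested. The remaining 9 cells lay in the B cell-like cluster. Of these, 1 Ighm cell of suffix 3 had 256 UMIs of choroid plexus epithelium markers, from 2 of the markers, against 10 to 65 in the other 13 cells.

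Cells rich in immunoglobulin but poor in Jchain were looked for after the values above were seen. Of the kept cells 4 had at least 10% of their UMIs in the members with fewer than 5 Jchain UMIs, all B cell-like cells of sorted brain. Of these 2, both of suffix 4, had mainly Ighm among heavy-chain UMIs and more Igkc than lambda UMIs. The first had 330 Ighm and 2297 Igkc UMIs, 43.2% of its UMIs in the members, 1 Jchain UMI, 3 Sdc1 and 20 Xbp1 UMIs and 0 Ms4a1 UMIs. The second had 105 Ighm and 317 Igkc UMIs, 21.4% of its UMIs in the members, with 0 Jchain and 0 Cd79a UMIs, and so fell outside the B-lineage rule. It had 27 lambda UMIs, 1 Sdc1 UMI and 0 UMIs of Xbp1 and of Ms4a1, whereas Xbp1 was detected in all 14 Jchain-high cells. The other 2 were lambda-rich B cells with 54 and 64 Iglc1 UMIs and 6 and 5 Ms4a1 UMIs.

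Against the other 897 B-lineage cells of sorted brain, the Jchain-high cells were higher in genes of antibody secretion and lower in genes of the B cell surface and its transcription factors. The 14 cells were chosen by Jchain, so only genes other than immunoglobulin genes and Jchain are compared, over 9708 genes with at least 10 UMIs. Calls and log2 ratios have 10 CPM added to both levels, whereas the folds printed for single genes are ratios of CPM with nothing added, so a gene of few UMIs can be past 2-fold by its printed fold and not be called. Of these 130 (1.34%) were at least 2-fold higher and 3575 (36.8%) at least 2-fold lower, with a median log2 ratio of −0.77. The 897 cells include 202 outside the B cell-like cluster. Against the 695 cells of that cluster, a comparison added after the values were seen, 151 genes were higher and 3388 lower, with the same counts of 20 secretion genes higher and 15 receptor and surface genes lower. Immunoglobulin genes took 53.1% of the UMIs of the Jchain-high cells and 1.92% of the others, which lowers every other gene on this scale. With those UMIs left out of the totals 749 genes (7.72%) were higher and 2200 (22.7%) lower, and the median was −0.27. The comparison is of 14 cells with 897 cells of 1 sample and has no replicate check, and without suffix 3, which held 9 of the 14 cells, 365 genes were higher. The Jchain-high cells were deeper too, with a median of 12035.5 against 1665 UMIs.

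Of 26 antibody secretion genes 20 were at least 2-fold higher and 0 lower (24 and 0 with immunoglobulin left out of the totals), with a median log2 ratio of 1.77. Xbp1, the transcription factor that expands the secretory apparatus, was detected in 14 of 14 cells and was 8.34-fold [6.66–10.4] higher. Sdc1, which encodes the plasma cell marker CD138, was 15.2-fold [8.21–28.4] higher and was detected in 12 cells, and Derl3, of the protein quality control of the endoplasmic reticulum, was 38.5-fold [15.9–107] higher in 10 cells. Slpi, a secreted protease inhibitor, was 76.8-fold [55.3–109] higher, but 176 of its 263 UMIs came from 1 Igha cell, and without that cell it was 27.6-fold [18.9–40.9]. The lowest of the list were Dnajb9 at 0.98-fold [0.51–1.73] and Prdm1, the repressor that drives plasma cell formation, at 1 UMI against 16, a ratio of 0.77 [0.018–4.93].

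B cell receptor and surface genes were lower in 15 of 17 cases and higher in 0 (12 and 0 without immunoglobulin in the totals), with a median log2 ratio of −2.18, or −2.04 with the 3 genes at 0 UMIs set to their bounds. Cd79a is 1 of the 17, and since the other cells entered by their Cd79a UMIs while the 14 entered by Jchain, its difference is set by the rule. Of the other 16 genes 14 were lower (11 without immunoglobulin in the totals). Ms4a1 had 10 UMIs against 1782, a ratio of 0.069 [0.033–0.127], and 7 of the 10 came from the cell of suffix 1. Fcer2a, the low-affinity IgE receptor of mature B cells, had 0 UMIs against 387 and was at least 10.5-fold lower. The least different were Fcgr2b, the inhibitory IgG receptor, at 0.72-fold [0.38–1.26], Cd83 at 0.59-fold [0.34–0.96], Cd38 at 0.41-fold [0.13–0.98] and Fcrla at 0.40-fold [0.23–0.66]. Without the cell that gave most UMIs of each gene, these stood at 0.49-fold, 0.47-fold, 0.18-fold and 0.31-fold in the same order. That cell was the one of suffix 1 for all but Fcgr2b, where it was the border macrophage-like cell. Of 15 transcription factors and kinases 13 were lower and 0 higher (8 and 0), with a median of −1.56, or −1.53 with the 3 genes at 0 set to their bounds. Ebf1, which sets B cell identity, had 5 UMIs against 2151, a ratio of 0.028 [0.0092–0.067], and the signalling adaptor gene Bank1 had 0 against 487, at least 13.2-fold lower. Btk stood at 0.53-fold [0.17–1.27], Blk at 0.42-fold and Pou2af1 at 0.40-fold, while Bcl6 had 0 UMIs against 18. Without the top cell of each gene Btk stood at 0.36-fold, Blk at 0.16-fold and Pou2af1 at 0.29-fold.

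Genes of class II antigen presentation were lower in 9 of 10 cases on the first scale and in 3 of 10 with immunoglobulin left out of the totals. On either scale 0 were higher, with medians of −1.56 and −0.64. Over all 9708 genes 36.8% were lower on the first scale and 22.7% on the second, so the 3 of 10 is near the share of all genes. Cd74, the invariant chain, stood at 0.52-fold [0.49–0.54], Ciita, the class II activator, at 0.30-fold, H2-Ab1 at 0.39-fold and H2-DMa at 0.37-fold [0.25–0.53]. The cell of suffix 1 and the border macrophage-like cell gave 94 and 80 of the 235 H2-Ab1 UMIs. They gave 18 and 11 of the 31 H2-DMa UMIs. Without the cell of suffix 1, Cd74 stood at 0.40-fold, H2-Ab1 at 0.26-fold and H2-DMa at 0.17-fold on the first scale. The count of 3 of 10 was not recomputed without these cells. H2-Oa stood at 0.17-fold and H2-DMb2 at 0.20-fold [0.13–0.30], but 22 of the 23 H2-DMb2 UMIs came from the cell of suffix 1, and without it the ratio was 0.0097. Of 11 early B cell genes measured 7 were lower and 0 higher on both scales, but 8 had 0 UMIs in the Jchain-high cells, and the median of −1.33 became −0.46 with these at their bounds. Vpreb3 stood at 0.099-fold [0.047–0.182], Il7r at 0.60-fold and Cd93 at 0.82-fold [0.019–5.31], while the dividing-cell gene Top2a had 0 UMIs against 77 and Rag1 and Vpreb2 had 0 against 11 and 14.

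Of the 15 genes of class switching and of IgA cell homing 11 could be measured, and of these 1 was higher and 3 were lower (4 and 3 without immunoglobulin in the totals), with a median of −0.09. Tnfrsf17, the survival receptor BCMA, had 9 UMIs in 8 of the 14 cells and was 6.13-fold [2.43–14.4] higher. The homing integrin gene Itga4 stood at 2.12-fold [1.11–3.76], with 10 of its 14 UMIs from the cell of suffix 1, and at 0.68-fold without it. The chemokine receptor genes Cxcr4 and Cxcr5 had 1 UMI against 173 and 0 against 115. Cxcr3 and Rora had 3 and 2 UMIs in the 14 cells. Of 5 genes of B1 or age-associated B cells that could be measured 0 were higher and 1 lower (3 and 0), with a median of 0.08 that became 1.012 on the second scale. Zbtb20 stood at 1.91-fold [1.25–2.84], Spn at 2.88-fold [0.71–8.84], Bhlhe41 at 1.07-fold, Ahnak at 0.48-fold and Cd9 at 0.29-fold [0.19–0.44].

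**Figure D4:**
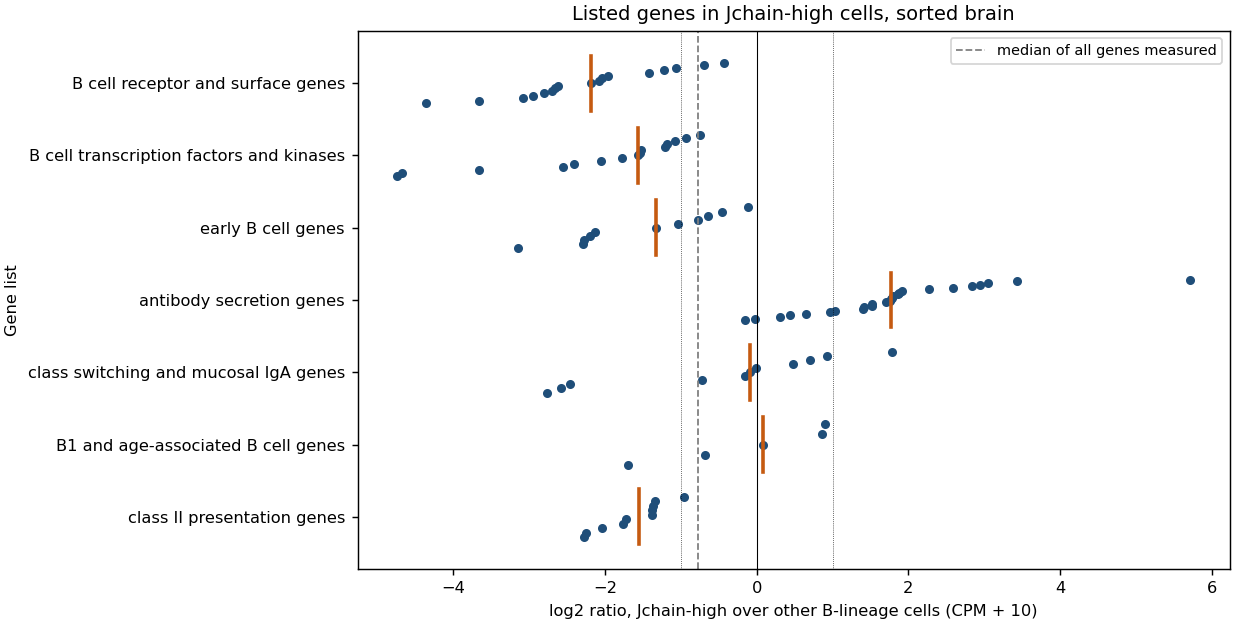
Log2 ratio of Jchain-high over other B-lineage cells of sorted brain (x axis, CPM + 10) for each measured gene (points) of 7 gene lists (rows), with the list's median (orange bar), the median of all 9708 genes (dashed line, −0.77) and the 2-fold limits (dotted lines). Antibody secretion genes lie to the right, with 20 of 26 past 2-fold, and B cell receptor and surface genes lie to the left, with 15 of 17 past it.

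Prg2 was the gene whose pattern was most like that of Jchain. Likeness was Pearson's r of log2(CPM + 1) over 16 clusters of sorted brain, for 12501 genes other than immunoglobulin genes, and the clusters share 1 library pool. Prg2, which encodes the major basic protein known from eosinophil granules, had r = 0.98 with Jchain and also led for Igkc (0.96) and Igha (0.93). It had 274 UMIs in 12 of the 14 Jchain-high cells, and the top cell gave 64 of them. In the rest of sorted brain it had 10 UMIs in the 2 immunoglobulin-rich cells with low Jchain, 2 in the other 896 B-lineage cells and 5 in the remaining 9164 cells. Total brain had 2 Prg2 UMIs. After Prg2 the genes most like Jchain were Mzb1 (r = 0.94), Pax5, Cxcr5 and Pou2af1. Of these Mzb1, a chaperone of antibody assembly, was 4.98-fold [4.26–5.80] higher in the Jchain-high cells, whereas Pax5, with 1 UMI against 151, and Cxcr5 were lower there. Likeness over whole clusters thus joined genes that single cells of the same cluster kept apart. Igkc was also like Mzb1, Ly6d, Cd79a and Pax5, and Igha like Pou2af1, Cxcr5, Gm37065 and Cd79a. Ighm was most like Cd72 (r = 0.89), H2-DMb2, H2-Ob, Cd79b and H2-Oa, which did not include Prg2.

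Outside the B-lineage rule the members had 7476 UMIs in 9165 sorted cells and 1430 in 9314 total cells, and Ighm behaved differently from the rest. The 4351 microglia-like cells of sorted brain had 310 CPM [299–321] of Ighm, and the 581 of total brain had 196 CPM [181–212]. The choroid plexus epithelium-like cells, which should lack the gene, stood at 14.04 CPM [12.1–16.2] and 0.577 CPM [0.0699–2.08]. Ighm was read in 44.7% of sorted microglia-like cells at a median of 2034 UMIs and in 6.47% of choroid plexus-like cells at 4193.5 UMIs. With every cell thinned to 1000 UMIs the shares were 27.1% and 1.71%. In total brain the shares were 51.3% at a median of 4310 UMIs and 0.575% at 5654.5 UMIs, and thinned 19.4% and 0%.

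Among the sorted classes, border macrophage-like cells (272 CPM), the unnamed cluster 13 (234), T cell-like (203) and NK cell-like cells (196) followed the microglia-like cells in Ighm, and non-immune classes lay lower. Fibroblast-like, oligodendrocyte-like and endothelial-like cells stood at 32.0, 37.9 and 40.9 CPM. In total brain neuron-like cells stood at 29.4 CPM [26.3–32.8] and endothelial-like cells at 10.98 [8.52–13.9]. The intervals of T and NK cell-like cells overlap, as do those of the 3 non-immune sorted classes. The 3 large microglia-like clusters of sorted brain were close to each other at 294, 314 and 320 CPM, and the 2 of total brain at 196 and 198. No more than 7 Ighm UMIs were found in any sorted microglia-like cell and no more than 9 in total brain.

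The makeup of the member UMIs differed in the same way. Ighm was 15.6% [15.4–15.8] of the member UMIs of sorted B-lineage cells and 18.1% [15.8–20.6] of those in choroid plexus-like cells, but 75.9% [74.5–77.2] in microglia-like cells. In total brain it was 20.9% of the member UMIs of B-lineage cells and 95.3% [93.4–96.8] of those in microglia-like cells. In sorted brain the level of B cell markers was close in both sets of cells: 9 of them together stood at 60.7 CPM in microglia-like cells with an Ighm UMI and at 59.5 CPM in those without. The 9 include Cd79a, which is absent from both sets because the B-lineage rule had already removed every cell with a Cd79a UMI. These comparisons therefore do not cover such cells. The 9 leave out Cd79b, which stood at 47.2 and 49.9 CPM. In total brain the pair was 67.4 and 59.6 CPM for the 9 markers and 36.2 and 19.9 CPM for Cd79b. Cells with an Ighm UMI there were deeper (a median of 7403.5 against 1996 UMIs), and 33.6% of them had a UMI of the 9 markers, against 15.9% of those without. With cells that held any UMI of the 9 markers left out, Ighm stayed within the counting interval of its level in both samples. Whether the Ighm UMIs came from the microglia-like cells themselves was not tested.

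Igha and Jchain outside the B-lineage rule were found mostly in the suffixes that held Jchain-high cells. In microglia-like cells Igha had 0, 0, 58 and 0 UMIs in suffixes 1 to 4, in choroid plexus-like cells 0, 0, 45 and 0, and in T cell-like cells 0, 0, 21 and 0. Suffix 3 is the one with the 3 Igha cells. Jchain had 0, 0, 34 and 4 UMIs in microglia-like cells, 1, 0, 24 and 5 in choroid plexus-like cells and 0, 0, 5 and 3 in T cell-like cells, and suffixes 3 and 4 hold 13 of the 14 Jchain-high cells. Igkc stood at 31.8 and 15.04 CPM in microglia-like cells of suffixes 1 and 2 and at 268 and 177 CPM in suffixes 3 and 4. In choroid plexus-like cells it was 33.7, 27.2, 77.5 and 87.1 CPM. In suffix 3 the members of choroid plexus-like cells were 64.0% Igkc, 16.3% Ighm, 12.0% [8.89–15.7] Igha and 6.40% [4.14–9.37] Jchain, beside 66.4%, 14.5%, 8.67% and 7.30% in the B-lineage cells of that suffix. The 2 makeups were close, with Igha above its B-lineage share. In microglia-like cells of suffix 3 Ighm was 53.1% and Igha 6.80%.

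Ighm differed less between suffixes. It stood at 307, 263, 427 and 362 CPM in suffixes 1 to 4 in this class, highest in suffix 3 and lowest in suffix 2. In T cell-like cells it stood at 267, 202, 179 and 182 CPM, highest in suffix 1, with overlapping intervals in suffixes 2 to 4. The microglia-like cells had fewer UMIs in suffixes 3 and 4, with medians of 1607 and 1238 against 2226 and 2367, and the part of depth in these levels was not tested.

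**Figure D5:**
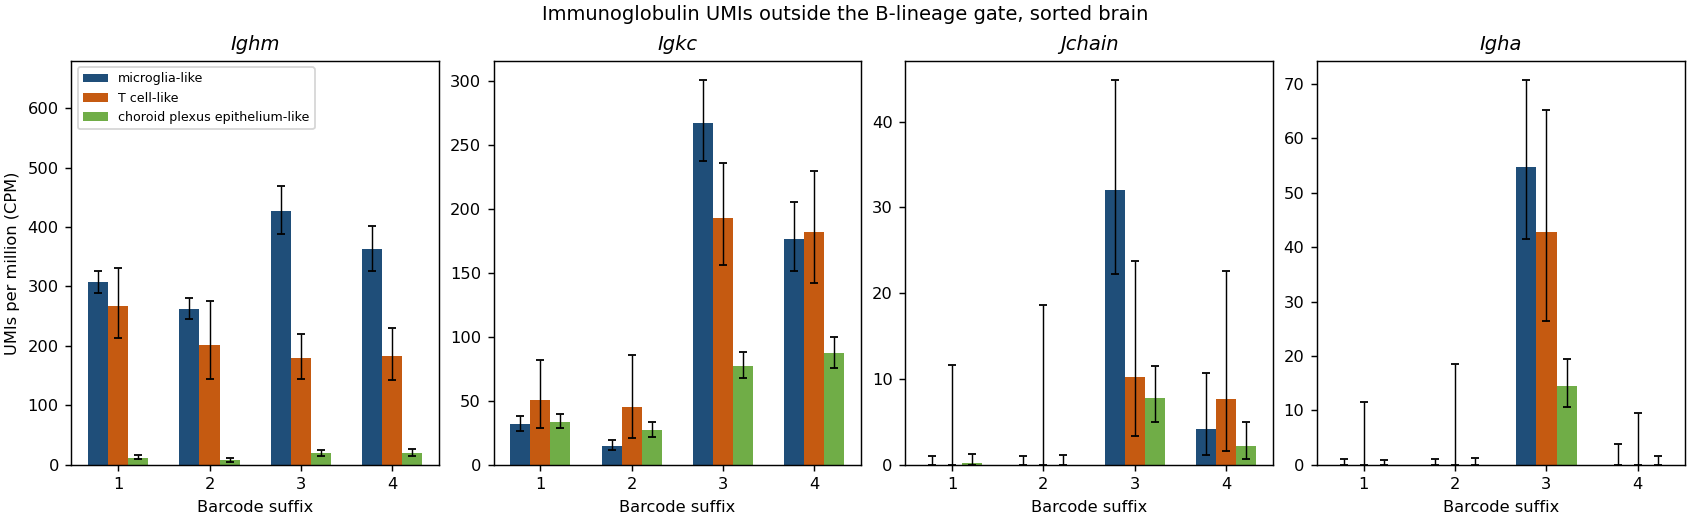
Ighm, Igkc, Jchain and Igha (panels; y axes in CPM from 0, on separate scales) in microglia-like, T cell-like and choroid plexus epithelium-like cells outside the B-lineage rule, by barcode suffix of sorted brain (x axis), with 95% Poisson intervals of counting error. Igha appears in suffix 3 only and Jchain and Igkc are highest in suffixes 3 and 4, whereas Ighm is above 250 CPM in microglia-like cells of every suffix.

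In total brain 91 of the 149 Igkc UMIs outside the B-lineage rule lay in 1 class. Igkc stood at 26.2 CPM [21.1–32.2] in the 348 choroid plexus-like cells, with 21, 23, 27 and 20 UMIs in suffixes 1 to 4, against 2.20 CPM [0.883–4.52] in microglia-like cells and 0.484 in endothelial-like cells. It was read in 16.1% of choroid plexus-like cells at a median of 5654.5 UMIs and in 0.516% of microglia-like cells at 4310 UMIs. Those choroid plexus-like cells had 2 Ighm UMIs and 0 of Iglc1, Iglc2 and Iglc3, so that Igkc was 97.8% [92.4–99.7] of their member UMIs, where B-lineage cells of total brain had 55.9%. The most in a cell was 10. Thinned to 1000 UMIs 2.15% of the cells kept an Igkc UMI.

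Jchain in total brain, which had 0 Jchain-high cells, was found mostly in neuron-like clusters. Of its 56 UMIs 23 lay in cluster 24 (4.23 CPM [2.68–6.35], with 3, 5, 10 and 5 in suffixes 1 to 4) and 22 in cluster 25 (6.67 CPM [4.18–10.1], with 1, 0, 8 and 13). Over all neuron-like cells it was 4.52 CPM [3.34–5.97], against 1 UMI in endothelial-like cells, 1 in microglia-like cells and 0 in choroid plexus-like cells. It was read in 0.812% of neuron-like cells at a median of 1433 UMIs and in 0.132% of endothelial-like cells at 4670 UMIs. In border macrophage-like cells of sorted brain Iglc3 stood apart from its neighbours, at 30.05 CPM [20.9–41.8] with Iglc1 at 5.2 and Iglc2 at 3.4. Its 35 UMIs were in 13 of 371 cells, and 1 cell held 11.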

How the data were processed

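Gene expression was read in 2 pooled mouse brain samples by 3′ droplet sequencing; per the labels' protocols, tissue was digested at 37 °C, strained at 70 µm and freed of debris and erythrocytes, and about 9000 of the cells went into each well. The deposited values are raw UMI counts per gene and barcode, made by the authors with Cell Ranger, version 3.0.2 for the sorted and 3.1.0 for the total sample per the file headers, on mm10 per the submitters' processing notes. Counts per barcode were used as deposited.

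Barcodes needed 500 genes or more and no more than 10% of UMIs from mitochondrial genes. Clusters came from scanpy 1.11.5 (2000 variable genes, 30 components, 15 neighbours, Leiden resolution 1) after 393 immunoglobulin and Jchain rows were left out, and were named by marker lists. No cells were removed as doublets. Counts were summed per class and suffix and given per 1000000 UMIs (CPM). Heavy- and light-chain calls needed 3 UMIs and 80% of 1 type. Shares of cells were also given after thinning to 1000 UMIs. Ratios between Jchain-high and other B-lineage cells used 10 CPM as pseudocount, genes of at least 10 UMIs and a 2-fold limit. In data simulated for that comparison over 9826 genes, 100% of genes raised 4-fold and 26% of those raised 2-fold were called higher, and 94% of genes lowered to 0.25-fold and 48% of those lowered to 0.5-fold were called lower. Of unchanged genes 0.0866% were called higher and 1.17% lower at 50 CPM or more, and 1.20% and 6.12% under 50 CPM. How many of the genes called higher in the real data (1.34%) were in fact unchanged was not tested. The simulation drew summed counts without immunoglobulin UMIs and without spread between cells, so its rates need not hold for the real comparison. Intervals (SciPy 1.17.1) cover counting error at 95%. Genes named are the 4 highest and 2 lowest of each list by log2 ratio, the 5 most like each of 4 members, and others whose values bear on a result. The members and lists were chosen with earlier results of these data known. Other cell filters, gates, call rules, pseudocounts, gene minimums, totals and leaving out each suffix were tried. The annotation was GENCODE M21.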

Additional observations from a re-analysis of the deposited data

Results flagged for a closer look

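Ighg2c, the constant gene of an IgG class, is outside the set described above. It had 13 UMIs in 12 cells of neuron-like cluster 24 of total brain, against 1 UMI in all other cells of that sample outside the B-lineage rule and 0 in its B-lineage cells.

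The lambda variable gene Iglv1 had 119 UMIs in 1 of the 3 Igha cells of sorted brain, a cell called kappa with 8715 Igkc UMIs. Its lambda constant UMIs were 1 of Iglc1, 74 of Iglc2 and 6 of Iglc3. All sorted B-lineage cells together had 165 Iglv1 UMIs.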

How the results depend on the processing

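No paired analysis was possible because each group is 1 pooled sample and no test was made. Of 146 alternatives over 26 values, besides leaving out suffixes, 114 stayed within the counting interval or within 1.5 times a count and 32 moved, and the cause was not tested.

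With a filter of 1000 genes and 5% mitochondrial UMIs, B-lineage cells were 5.03% of sorted cells, Jchain-high cells 5.91% of these, Igha 1.99% of class calls and mixed light chains 27.3%, and lambda was 0% of calls in total brain. Outside the rule Ighm was then 66.8% of member UMIs in sorted brain and 50.02 CPM in total brain, in 37.1% and 10.5% of cells. With the looser filter (200 genes, 20%) Ighm was 53.7% of member UMIs and 30.6 CPM, in 26.8% and 5.70% of cells. Thinned, it was in 16.6% and 3.67% of cells. With 2 Cd79a UMIs, B-lineage cells were 7.13% and 0.310% and mixed cells 39.7% in sorted brain. With the B cell-like cluster in place of the rule they were 7.20% and 0.235%, and mixed cells 39.9% and 27.3%. At 90% dominance lambda was 17.5% of sorted calls, and mixed cells were 59.7% and 32.1%. In the Jchain-high comparison, a pseudocount of 1 CPM gave 267 genes higher and 5835 lower, a minimum of 50 UMIs gave 58 and 2240 with 13 secretion genes higher, and totals without immunoglobulin gave 749 and 2200.

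Leaving out each suffix in turn gave ranges of 7.42% to 10.4% (sorted) and 0.489% to 0.612% (total) for B-lineage cells, 0.704% to 1.97% for Jchain-high cells and 0% to 0.651% for Igha calls. Both lowest values of the last pair were those without suffix 3. Lambda calls ranged from 8.79% to 11.8% and, in total brain, from 0% (without suffix 4) to 18.2%. Mixed cells ranged from 30% to 35.2% and from 7.14% to 15.8%. Outside the rule Ighm ranged from 49.8% to 62.7% of member UMIs and from 28.9% to 31.9% of cells in sorted brain. In sorted microglia-like cells Ighm ranged from 295 to 338 CPM and Igkc from 41.8 (without suffix 3) to 99.4. In sorted choroid plexus-like cells Ighm ranged from 12.3 to 16.3 CPM and Igkc from 44.2 to 61.5. Genes higher in Jchain-high cells ranged from 127 to 365 (without suffix 3) and lower from 3430 to 4310. Secretion genes higher ranged from 18 to 20, and receptor genes lower from 10 to 16.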
